A study of Mus musculus with 8 samples.

Results

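The SLC25 family of mitochondrial carriers was described in the livers of mice that lack Brap in hepatocytes. Its members were the protein-coding rows of the deposited table with a symbol made of Slc25a and a number, and 45 of the 24451 genes met this rule. Liver RNA was sequenced from 4 Brap LKO mice (Brap fl/fl, Alb Cre+) and 4 Brap F/F mice (Brap fl/fl, Alb Cre-), all 18 wk old and on a C57BL/6 strain. All were fasted for 6 h, and the left lobe was taken. In the Brap LKO mice, Cre driven by the Albumin promoter removes exons 2 and 3 of Brap, which encodes a ubiquitin ligase, in hepatocytes. The Brap F/F mice, labeled wild type, carried the same floxed alleles without Cre, so an effect of Cre alone cannot be told apart from that of the deletion. By the animal numbers in the labels, which fall into 2 ranges, 3 of 4 Brap LKO livers but 1 of 4 Brap F/F livers came from the lower range. Each library came from a single liver and the methods describe studies in male mice.

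SLC25 carriers are encoded in the nucleus and imported into mitochondria, where most of them sit in the inner membrane and exchange metabolites between the cytosol and the matrix. In hepatocytes they link pathways that are split between these compartments. Among them are the export of citrate for lipid synthesis, the entry of ornithine for the urea cycle, the entry of acylcarnitines for fatty acid oxidation, and the exchange of ADP for ATP. A few members sit elsewhere, such as Slc25a17 in peroxisomes and Slc25a46 in the outer mitochondrial membrane.

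Each liver had from 26280884 to 33313914 reads on genes. The values are normalized counts, that is reads on a gene divided by a size factor for each liver. Brap itself had normalized counts between 3641 and 4410 over the 8 livers (limma, log2 fold change -0.07, adjusted p = 0.631), and counts over the whole gene therefore did not check the labels. Summed over all genes, normalized counts were lower in every Brap LKO liver (27440741 to 28975099) than in every Brap F/F liver (29964617 to 32729998). A fold change thus depends on the scale. Dividing each liver by its total in place of its size factor moved the median log2 fold change of all genes from -0.01 to 0.15.

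Of the 45 carriers, 41 averaged at least 5 normalized counts over the 8 livers and were tested. The remaining 4 had between 0 and 5 reads in any liver. They were Slc25a2, an ornithine carrier, Slc25a18, a glutamate carrier, Slc25a31, an ADP/ATP carrier known from testis, and Slc25a43. A count of 0 allows up to 3 reads, so differences in these genes were not detectable at this depth.

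Levels were compared between carriers as normalized counts per kb of the transcript with the longest coding sequence. They spanned 1049-fold among the tested carriers, from 14.2 per kb for Slc25a27 to 14885 per kb for Slc25a47, a carrier known mainly from liver. The next on this scale were Slc25a39, a glutathione carrier (6394 per kb), Slc25a3, which brings in phosphate for ATP synthesis (5697 per kb), and Slc25a10, the dicarboxylate carrier (3865 per kb). Slc25a1, the citrate carrier (3692 per kb), Slc25a5, an ADP/ATP carrier (3292 per kb), Slc25a23, a calcium-regulated carrier of ATP-Mg and phosphate (3282 per kb), and Slc25a22, a glutamate carrier (3249 per kb), followed. These 8 genes made up 68.3% of the summed level per kb of the family, and Slc25a47 alone made up 22.9%. Neighboring genes did not share these levels. Slc25a47 and Slc25a29, a carrier of basic amino acids, have annotated spans 162 bases apart on chromosome 12 of mm10 (GENCODE), with 256-fold more of Slc25a47 per kb. The RefSeq start of transcription used for the Slc25a47 promoter lies further inside its span, 15245 bases from Slc25a29. On chromosome X, Slc25a5 lies 18448 bases from Slc25a43, which was near 0. As a share of all normalized counts, the family took 0.464% ± 0.0256 with Brap deleted and 0.482% ± 0.0363 in Brap F/F livers (SD, n = 4 each). These shares overlapped between the groups.

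Between the groups, one carrier passed the threshold, an adjusted p-value under 0.05 from limma on log2(normalized count + 1). This was Slc25a4, which encodes the ADP/ATP carrier typical of heart and muscle, and it was higher in the Brap LKO livers. Among all 15352 tested genes, 0.664% were higher and 0.104% lower by this test. No carrier (0) was lower at the threshold, where limma found 6 lower carriers at an unadjusted p-value under 0.05. With count tests on the recovered reads, Slc25a4 was the only carrier called by edgeR, which called 0.795% of all genes. DESeq2 called 4.07% of all genes and 3 carriers, with Slc25a4 and Slc25a24 higher and Slc25a34 lower. At an unadjusted p-value under 0.05 from limma, 2 carriers were higher, where 9.23% of all genes were, and the 6 lower carriers compare with 6.59% of all genes. These counts were not steady. With the same total per liver they were 4 higher and 1 lower, and leaving out each liver gave 3 (without Brap LKO replicate 4) to 12 (without Brap F/F replicate 4) lower carriers. For 2 carriers the Brap LKO values were all above the Brap F/F values, and for 5 they were all below, where the shares of all genes were 5.48% and 4.39%. Lower values were more frequent among all abundant genes. Of the 4016 genes that averaged at least 1000 normalized counts, 461 were lower at an unadjusted p-value under 0.05 from limma, and 302 were lower without overlap. Of the 22 carriers at this level, 4 and 3 were.

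**Figure D1:**
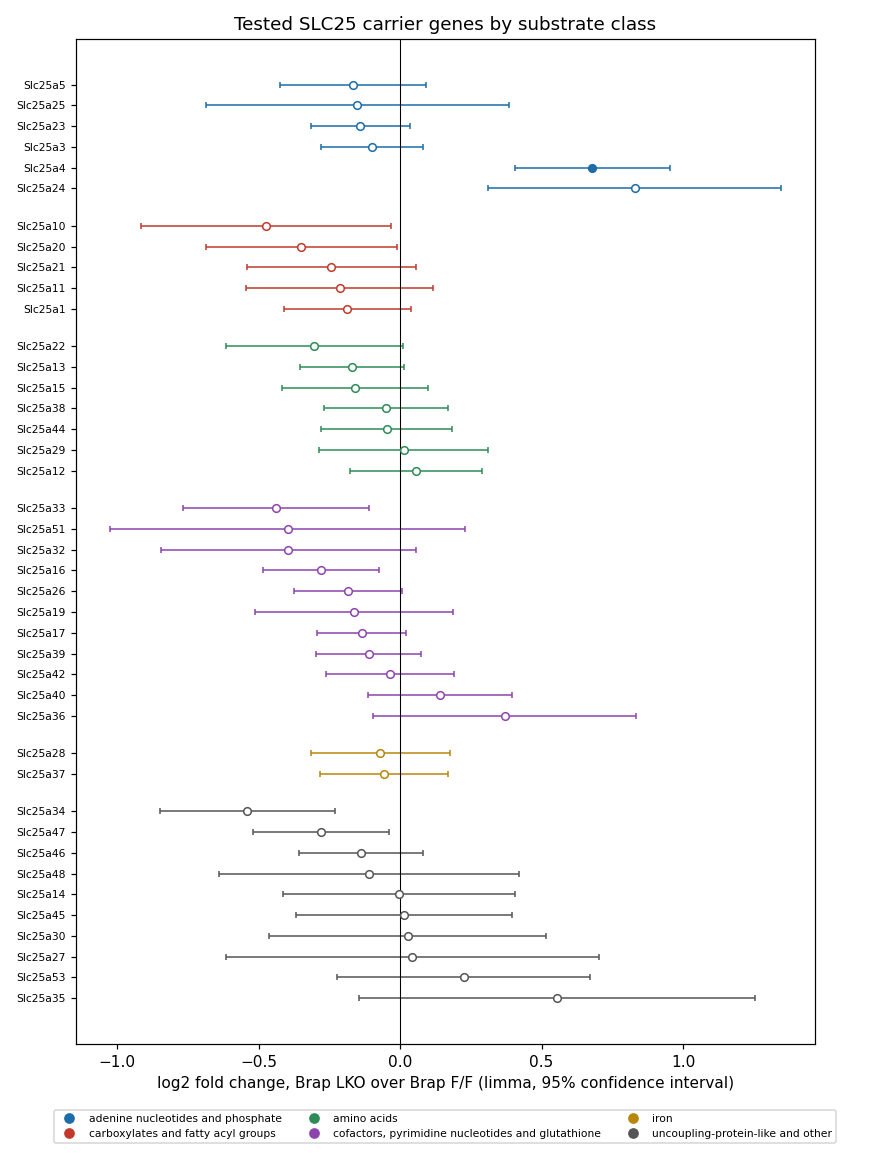
Log2 fold change (x axis, Brap LKO over Brap F/F) of the 41 tested carriers by class of substrate, with 95% confidence intervals from limma over 4 livers a group. The filled point, Slc25a4, is the only carrier past an adjusted p-value of 0.05, and 30 of the 41 points lie below 0 with the deposited size factors.

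Slc25a4 lies on chromosome 8 from 46206797 to 46211284 and has 4 exons. Its normalized counts were 176, 179, 189 and 218 in Brap LKO replicates 1 to 4 and 101, 133, 123 and 118 in Brap F/F replicates 1 to 4. Every Brap LKO liver thus lay above every Brap F/F liver. The log2 fold change was 0.68 (95% confidence interval 0.40 to 0.95, adjusted p = 0.0466 from limma), or 60.1% more in the Brap LKO livers. It stood at the edge of the threshold. Without any 1 of the 8 livers it was 0.61 to 0.74 and did not pass (adjusted p from 0.0546, without Brap F/F replicate 4, to 0.127, without Brap LKO replicate 1). Quantile normalization ended the call as well (log2 fold change 0.58, adjusted p = 0.0943 from limma). In the liver, Slc25a4 is the minor ADP/ATP carrier. Its paralog Slc25a5, on chromosome X from 36795651 to 36798807, had normalized counts of 3741, 3895, 4061 and 3607 in the Brap LKO livers and 3979, 5194, 4649 and 3527 in Brap F/F livers. The groups overlapped for Slc25a5, and the fitted log2 fold change was -0.17 (limma, 95% confidence interval -0.42 to 0.09, adjusted p = 0.503). For Slc25a5 it was -0.0093 with the same total per liver, -0.07 after quantile normalization or without Brap F/F replicate 2, and -0.26 when replicate 4 of that group was left out. Per kb, Slc25a5 was 55.9-fold above Slc25a4 in the Brap F/F livers and 31.1-fold above it in the Brap LKO livers. Reads that match a processed copy as well as Slc25a5 could have been lost in counting, and the copy Slc25a5-ps had at most 7.08 normalized counts.

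The promoters of this pair are shown because only Slc25a4 passed the threshold, and those of Slc25a34 and Slc25a47 because these genes had the most negative fitted value and the highest level per kb. The sequences are RefSeq's for GRCm38.p6, from 250 bases before to 50 bases after the start of transcription. Of the 45 carriers, 35 had such a sequence. Capitals mark matches on either strand to the GC box (letters GGGCGG), the CCAAT box (letters CCAAT), the TATA box (letters TATAA) or a core element of nuclear receptor sites (letters AGGTCA), all chosen with these sequences in view. The positions are chr8:46211013-46211312 on the minus strand for Slc25a4, chrX:36795347-36795646 on the plus strand for Slc25a5, chr4:141623785-141624084 on the minus strand for Slc25a34 and chr12:108850879-108851178 on the plus strand for Slc25a47.
Slc25a4: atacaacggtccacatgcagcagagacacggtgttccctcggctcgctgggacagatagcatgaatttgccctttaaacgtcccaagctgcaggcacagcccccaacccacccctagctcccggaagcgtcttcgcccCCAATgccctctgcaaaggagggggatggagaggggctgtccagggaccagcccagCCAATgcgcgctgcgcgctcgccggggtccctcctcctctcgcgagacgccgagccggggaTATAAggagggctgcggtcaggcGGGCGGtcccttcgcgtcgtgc
Slc25a5: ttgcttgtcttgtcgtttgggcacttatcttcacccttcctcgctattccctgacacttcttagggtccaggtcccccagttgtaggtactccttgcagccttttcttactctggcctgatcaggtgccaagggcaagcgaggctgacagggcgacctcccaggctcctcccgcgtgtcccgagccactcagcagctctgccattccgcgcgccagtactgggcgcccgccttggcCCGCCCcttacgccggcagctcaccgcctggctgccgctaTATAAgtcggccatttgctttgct
Slc25a34: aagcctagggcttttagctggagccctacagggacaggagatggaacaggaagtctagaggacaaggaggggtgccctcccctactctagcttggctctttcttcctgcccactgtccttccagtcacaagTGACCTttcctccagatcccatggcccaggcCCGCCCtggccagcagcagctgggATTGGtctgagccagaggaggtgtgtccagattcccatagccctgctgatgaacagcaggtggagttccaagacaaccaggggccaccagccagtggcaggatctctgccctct
Slc25a47: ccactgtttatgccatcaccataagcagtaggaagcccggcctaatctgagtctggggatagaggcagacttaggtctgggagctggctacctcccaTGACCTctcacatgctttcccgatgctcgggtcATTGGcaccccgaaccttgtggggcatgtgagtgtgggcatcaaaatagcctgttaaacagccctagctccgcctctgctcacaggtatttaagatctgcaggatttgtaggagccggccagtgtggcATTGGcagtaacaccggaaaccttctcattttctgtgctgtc
The promoters of both ADP/ATP carriers held 1 TATAA match and 1 GGGCGG match, and that of Slc25a4 also held 2 CCAAT matches. In both windows the TATAA match lay in the last 50 bases, that is after the RefSeq start used here. RefSeq and GENCODE starts differ for these genes too. The Slc25a5 window ends at 36795646, before its GENCODE span begins at 36795651, and the start used for Slc25a4 lies inside its span. They held 25 (Slc25a4) and 18 (Slc25a5) CG dinucleotides, against 1 in that of Slc25a34 and 7 in that of Slc25a47. The latter pair each held 1 AGGTCA match. Of the 45 promoter windows listed for the carriers, some genes having several, 38 held GGGCGG (84.4%), against 35.7% of all 32851 windows. CCAAT was in 48.9% against 37.4%, TATAA in 11.1% against 24.9%, and AGGTCA in 8.89% against 16.3%. The median window of the carriers held 15 CG dinucleotides and the median of all windows 7. These are matches of letters and were not tested as binding sites.

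Among the other carriers of adenine nucleotides and phosphate, Slc25a24, a calcium-regulated carrier of ATP-Mg and phosphate, had the largest log2 fold change of the family. Its normalized counts were 62.9, 66.3, 66.8 and 99.8 in the Brap LKO livers and 41.0, 27.5, 47.3 and 50.04 in Brap F/F livers. The groups did not overlap, but the difference of 0.83 on the log2 scale (95% confidence interval 0.31 to 1.35) missed the threshold (limma, adjusted p = 0.138). By transcript level, the main genes for the same carrier function in these livers were Slc25a23 and Slc25a25. Slc25a23 had normalized counts of 10233, 10938, 10970 and 9836 in the Brap LKO livers and 11540, 11683, 12483 and 10582 in the Brap F/F livers, which overlap. Its log2 fold change was -0.14 (adjusted p = 0.410 from limma), and 0.02 with the same total per liver. Slc25a25 had a log2 fold change of -0.15 with a wide interval (-0.69 to 0.38), its lowest liver being Brap LKO replicate 1 at 5438 and its highest Brap LKO replicate 3 at 12440. Slc25a3, the phosphate carrier, was counted at 7299, 7917, 7637 and 6659 in the Brap LKO livers and 7232, 8484, 8078 and 7807 in the Brap F/F livers. Its log2 fold change of -0.10 (limma, adjusted p = 0.572) turned to 0.06 with the same total per liver and to 0.01 after quantile normalization.

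**Figure D2:**
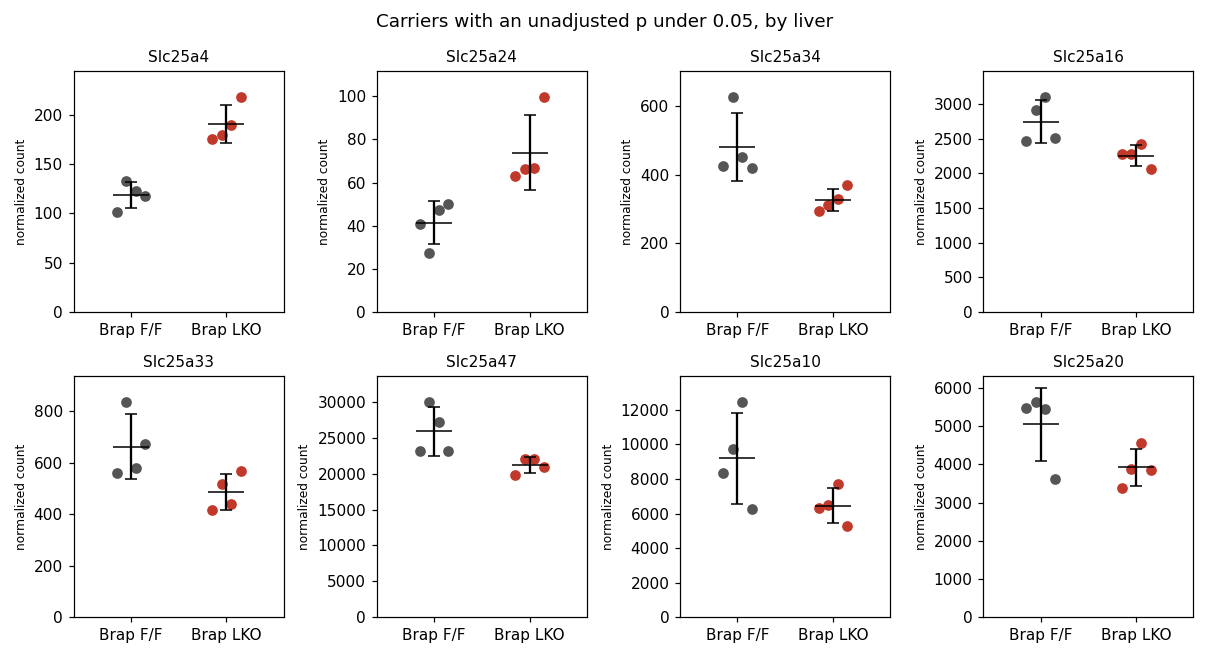
Normalized counts (y axes, from 0) of the 8 carriers with an unadjusted p-value under 0.05 from limma, by group; points are livers, wide bars the mean and error bars the SD of 4 livers. Slc25a4 and Slc25a24 sit higher in every Brap LKO liver, Slc25a34, Slc25a16 and Slc25a47 sit lower in every one, and the groups overlap in the other genes.

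The carriers of carboxylates and fatty acyl groups connect the citric acid cycle and fatty acid oxidation to the cytosol. All 5 of them had log2 fold changes below 0, with a median of -0.24. Below 0 were 52.0% of all tested genes and 70.9% of those that averaged at least 1000 normalized counts. Slc25a1, Slc25a10, Slc25a11 and Slc25a20 averaged above that level. None (0) of the 5 passed the threshold in limma, edgeR or DESeq2. At an unadjusted p-value under 0.05 from limma 2 were lower, against the 6.59% of all genes. Slc25a10, which exchanges malate and succinate for phosphate, was counted at 6330, 6483, 7721 and 5307 in the Brap LKO livers and at 8329, 9700, 12447 and 6237 in Brap F/F livers. The groups overlapped through Brap F/F replicate 4, and the log2 fold change was -0.47 (95% confidence interval -0.92 to -0.03, adjusted p = 0.290 from limma). Slc25a20, which carries acylcarnitines to the matrix enzymes of fatty acid oxidation, was counted at 3390, 3885, 4555 and 3854 in the Brap LKO livers and at 5483, 5637, 5452 and 3613 in the Brap F/F livers. Brap F/F replicate 4 lay among the Brap LKO livers, and the other Brap F/F livers lay above all of them. For Slc25a20 limma gave -0.35 on the log2 scale (adjusted p = 0.304), and without Brap F/F replicate 4 it was -0.50 and passed the threshold (adjusted p = 0.0492). Slc25a1, which exports citrate, was counted at 5260, 5687, 6519 and 5528 in the Brap LKO livers and at 5678, 7254, 7057 and 6222 in the Brap F/F livers, which overlap (limma, log2 fold change -0.19, adjusted p = 0.395). Slc25a11, which exchanges oxoglutarate for malate, and Slc25a21, which carries oxoadipate, had log2 fold changes of -0.21 and -0.24.

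Of the 7 tested carriers of amino acids, 5 had log2 fold changes below 0. The shares were 52.0% of all tested genes and 70.9% of those that averaged at least 1000 normalized counts. None (0) of the 7 passed the threshold in limma, edgeR or DESeq2, nor an unadjusted p-value of 0.05 in limma. Slc25a22, a glutamate carrier, was counted at 7512, 8250, 8312 and 8322 in the Brap LKO livers and at 8324, 13494, 8910 and 9928 in the Brap F/F livers. No liver of one group entered the range of the other, but the nearest pair, at 8322 and 8324, stood almost level. Its log2 fold change was -0.30 (95% confidence interval -0.62 to 0.01, adjusted p = 0.330 from limma). It was -0.16 without Brap F/F replicate 2 and -0.15 with the same total per liver. Slc25a15, which brings ornithine to the urea cycle, and Slc25a13, the liver's main aspartate/glutamate carrier, had log2 fold changes of -0.16 (adjusted p = 0.522) and -0.17 (adjusted p = 0.353, both from limma). The other members ranged from -0.05 to 0.06. Among them were Slc25a38, a glycine carrier for heme synthesis, Slc25a44, a carrier of branched-chain amino acids, and Slc25a12, the paralog of Slc25a13.

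The class for cofactors, pyrimidine nucleotides and glutathione had 11 tested members, 9 of them below 0, with a median log2 fold change of -0.16. Again 52.0% of all tested genes were below 0, and 70.9% of those that averaged at least 1000 normalized counts. None (0) of the 11 passed the threshold in limma, edgeR or DESeq2. At an unadjusted p-value under 0.05 from limma 2 were lower, again beside 6.59% of all genes. Slc25a16, linked to coenzyme A, was counted at 2272, 2278, 2414 and 2055 in the Brap LKO livers and at 2459, 2910, 3103 and 2504 in Brap F/F livers. The groups did not overlap, and the log2 fold change was -0.28 (95% confidence interval -0.48 to -0.07, adjusted p = 0.198 from limma). Slc25a33, a carrier of pyrimidine nucleotides, was counted at 416, 519, 441 and 568 in the Brap LKO livers and at 561, 837, 580 and 672 in the Brap F/F livers. Brap LKO replicate 4 reached just into the range of the Brap F/F livers, and the log2 fold change was -0.44 (adjusted p = 0.203 from limma). Of the exon bases of Slc25a33, 14.9% are shared with Gm13068 on the opposite strand, and whether strand was used in counting is not given in the sources used here. Slc25a26, the carrier of S-adenosylmethionine, was lower in every Brap LKO liver as well, but by 0.18 on the log2 scale (adjusted p = 0.336 from limma). Slc25a39 was counted at 9571, 10717, 11574 and 9631 in the Brap LKO livers and at 10715, 11548, 10901 and 11532 in the Brap F/F livers. These ranges overlap. Its log2 fold change of -0.11 (limma, adjusted p = 0.535) became 0.05 with the same total per liver and 0.0062 after quantile normalization. Slc25a51, which brings NAD into the matrix, and Slc25a32, a carrier of folate and FAD, had log2 fold changes of -0.40 each, with intervals that included 0. The iron carriers Slc25a28 and Slc25a37 had log2 fold changes of -0.07 and -0.06, with 95% confidence intervals from -0.31 to 0.18 and from -0.28 to 0.17.

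The remaining 10 tested members resemble the uncoupling proteins or have substrates that are less well known. Of these 10, 5 were below 0, beside 52.0% of all tested genes. Slc25a34, on chromosome 4 from 141618824 to 141623821, had the most negative fitted value of the family. It was counted at 295, 312, 330 and 368 in the Brap LKO livers and at 425, 626, 451 and 418 in the Brap F/F livers, without overlap. The log2 fold change was -0.54 (95% confidence interval -0.85 to -0.23), which did not pass the threshold in limma (adjusted p = 0.109) and did in DESeq2 (adjusted p = 0.0183). Its relative Slc25a35 was counted at 51.0, 38.2, 61.7 and 41.6 in the Brap LKO livers and at 45.6, 23.4, 19.97 and 48.1 in Brap F/F livers. The groups overlapped (log2 fold change 0.55, 95% confidence interval -0.15 to 1.26, adjusted p = 0.415 from limma), and 31.3% of the exon bases of Slc25a35 are shared with Rangrf on the opposite strand. Slc25a47, the most abundant member, was counted at 19787, 22026, 22057 and 20858 in the Brap LKO livers and at 23075, 29972, 27185 and 23192 in the Brap F/F livers. Every Brap LKO value lay below every Brap F/F value. The fitted log2 fold change, -0.28 (95% confidence interval -0.52 to -0.04), missed the threshold (limma, adjusted p = 0.259), and it was -0.12 with the same total per liver. Slc25a14, Slc25a27 and Slc25a30, which resemble uncoupling proteins, lay between -0.0031 and 0.04.

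Over the family, 30 of the 41 tested carriers (73.2%) had a log2 fold change below 0 and the median was -0.14, beside 52.0% and -0.01 for all tested genes. With the same total per liver, 17 carriers lay below 0 and the median was 0.02. The sign of the family's median thus depended on the scale. Below the median of all genes lay 29 carriers under both scales. This change of scale multiplies each liver by a single factor and shifts all genes nearly alike, so that count could hardly change. After quantile normalization, which does not shift all genes alike, 27 carriers lay below that median. Single genes moved with the scale too, and with the same total per liver the log2 fold change was -0.03 for Slc25a1, -0.12 for Slc25a16, -0.19 for Slc25a20 and -0.28 for Slc25a33. The lower values were found mostly in abundant carriers. Of the 22 carriers that averaged at least 1000 normalized counts, 21 were below 0 with the deposited size factors, where the share of all genes at this level was 70.9%. With the same total per liver, which raises the values of all genes, 12 were below 0. Against the median of all genes, 21 of the 22 lay lower under both scales, beside 68.4% and 68.0% of all genes at this level. Here too the change of scale could hardly move the count. After quantile normalization 16 lay below the median of all genes, beside 45.0% of all genes at this level. The 22 carriers had a median of -0.16 and the 4016 genes one of -0.07. The exception was Slc25a30 at 0.03. Of the 19 tested carriers that averaged under 1000, 9 (47.4%) were below 0, with a median of 0.01. Among all genes under 1000, 45.2% were below 0, with a median of 0.03, so all genes differed by level as well. Across the 41 carriers, Spearman's rho between the mean level and the log2 fold change was -0.55. This is a description across genes measured in the same 8 libraries, and genes are not independent replicates.

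**Figure D3:**
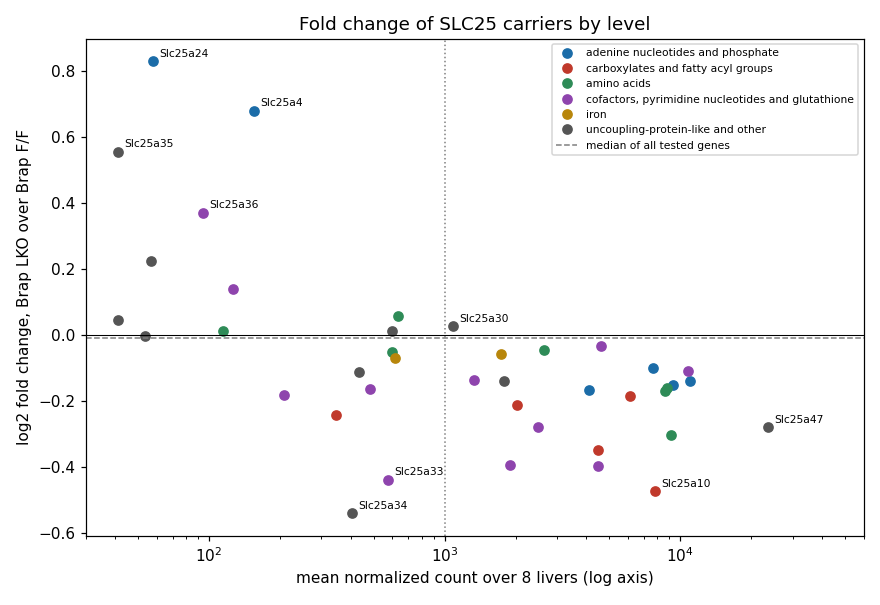
Log2 fold change (y axis) against the mean normalized count over 8 livers (x axis, log scale) for the 41 tested carriers, colored by class; the dashed line is the median of all tested genes and the dotted line marks a count of 1000. Right of the dotted line 21 of 22 carriers lie below 0 with the deposited size factors. With these factors 21 lie below the median of all genes, and 16 do after quantile normalization.

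The level of a carrier relative to a like carrier in the same liver does not depend on the size factor, other than through the pseudocount of 1. Ratios were taken for 10 pairs of carriers, chosen for the same or a like substrate. The members of Slc25a34/Slc25a35 and Slc25a14/Slc25a30 resemble uncoupling proteins or have less well known substrates, so there a like substrate is an assumption. In 2 pairs the ratios of the groups did not overlap (exact permutation test, two-sided, with p = 0.0286 as the lowest that 4 livers against 4 allow, and adjusted p = 0.143 over the 10 pairs). The log2 ratio of Slc25a4 to Slc25a5 was -4.40, -4.43, -4.42 and -4.04 in the Brap LKO livers and -5.28, -5.27, -5.23 and -4.89 in the Brap F/F livers. It was thus higher by 0.85, or 1.80-fold, in the Brap LKO livers. The log2 ratio of Slc25a23 to Slc25a24 was 7.32, 7.35, 7.34 and 6.61 in the Brap LKO livers and 8.10, 8.68, 8.01 and 7.70 in the Brap F/F livers, a difference of -0.97. For the mitoferrins Slc25a37 and Slc25a28 the difference was 0.01 (exact permutation test, p = 0.914), and for the aspartate/glutamate carriers Slc25a12 and Slc25a13 it was 0.23 (exact permutation test, p = 0.200). The ratio of Slc25a34 to Slc25a35 differed by -1.10 and that of Slc25a33 to Slc25a36 by -0.81 (exact permutation test, p = 0.0571 for both), with overlap between the groups. No pair passed the threshold after adjustment. Neither 1 pair nor 2 pairs at the lowest possible p could reach it by themselves in this design.

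**Figure D4:**
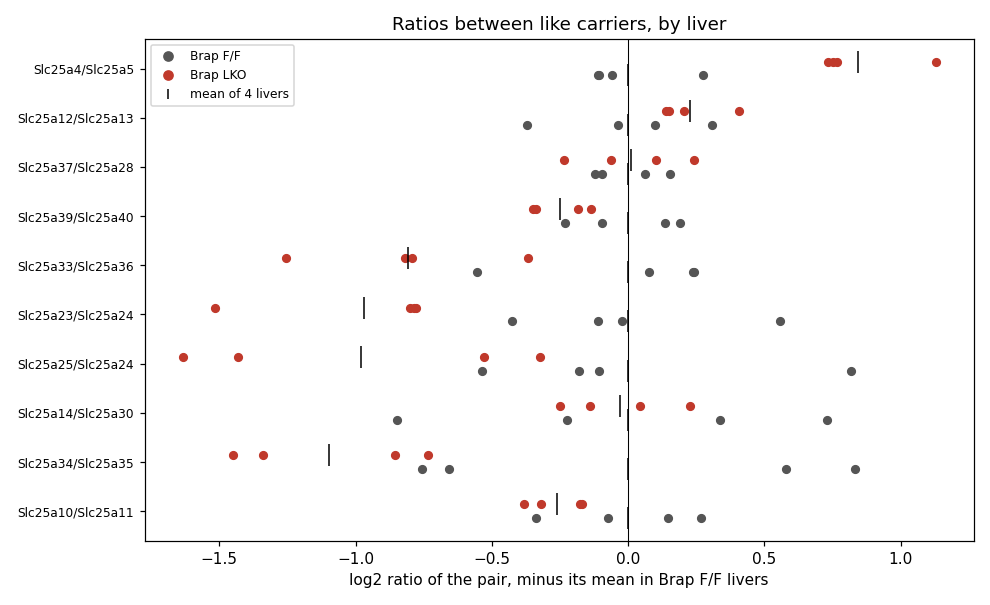
Log2 ratio of the normalized counts in 10 pairs of like carriers (x axis, minus the mean of the Brap F/F livers for that pair), with 1 point per liver and a bar at the mean of 4 livers. The Brap LKO livers lie apart from the Brap F/F livers for Slc25a4/Slc25a5 and for Slc25a23/Slc25a24, and overlap them in the other 8 pairs.

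Genes that work with the carriers were read from further lists. Of 105 tested genes in 5 lists, none (0) passed the threshold in limma, 11 had an unadjusted p-value under 0.05, none (0) was called by edgeR and 4 were called by DESeq2. The shares of all genes were 15.8% for an unadjusted p-value under 0.05 in either direction and 4.07% for DESeq2, so these counts do not stand above the background. Of the 105 genes, 87 (82.9%) were below 0, beside 52.0% of all tested genes and 70.9% of those that averaged at least 1000 normalized counts. The median log2 fold change of the 105 was -0.12. Signs in these lists were read with the deposited size factors only and depend on the scale. With the same total per liver the median of all genes moved from -0.01 to 0.15. In the machinery that brings carriers from the ribosome into the inner membrane, 14 of 16 genes were below 0 (median -0.11). Values ranged from -0.28 for Timm8a1, a chaperone of the intermembrane space, to 0.14 for Timm10b, a partner of the carrier translocase. Of the 25 tested mitochondrial transporters outside the rule, 19 were below 0 (median -0.11). The most negative was Sfxn1, a serine carrier (-0.43), which was lower in every Brap LKO liver, and the highest was Sfxn4 (0.55), with at most 14.2 normalized counts. Ucp2, an uncoupling protein of the same family under another symbol, was counted at 1355, 1197, 1324 and 1767 in the Brap LKO livers and at 1191, 933, 891 and 934 in the Brap F/F livers. Its groups did not overlap, and limma gave a log2 fold change of 0.51 that missed the threshold (adjusted p = 0.115). DESeq2 called it (adjusted p = 0.0241), and so did limma with the same total per liver (log2 fold change 0.67, adjusted p = 0.0476). Mpc1 and Mpc2, the subunits of the pyruvate carrier, had log2 fold changes of -0.36 (adjusted p = 0.287) and -0.27 (adjusted p = 0.242, both from limma).

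Of 38 enzymes that use what the carriers move, 33 were below 0 with the deposited size factors, beside 52.0% of all tested genes. Their median log2 fold change was -0.18. Glud1, which turns glutamate into oxoglutarate in the matrix, was counted at 28605, 27533, 28503 and 28965 in the Brap LKO livers and at 36197, 35306, 35954 and 34404 in Brap F/F livers. The groups stood clearly apart, and the log2 fold change was -0.32, past the threshold not in limma (adjusted p = 0.108) but in DESeq2 (adjusted p = 1.69e-09). Pcx, which makes oxaloacetate from pyruvate, was also lower in every Brap LKO liver (limma, log2 fold change -0.39, adjusted p = 0.193). The ends of the list were Pck1 (-0.44), the cytosolic enzyme of gluconeogenesis, and its mitochondrial counterpart Pck2 (0.49), and neither passed the threshold. Of 19 regulators of mitochondrial genes, 14 were below 0 (median -0.06), from Ppargc1a, a coactivator (-0.50), to its relative Ppargc1b (0.34). Of the genes encoded by mitochondrial DNA, 8 of 13 were in the table and 7 were tested. All 7 were below 0 (median -0.27), from mt-Nd6 (-0.42) to mt-Nd2 (-0.15). Their summed normalized count was lower in every Brap LKO liver (1580385 to 1653353) than in every Brap F/F liver (1662231 to 2112391). As a share of all normalized counts the groups overlapped, with 5.45% to 5.93% in the Brap LKO livers and 5.39%, in replicate 4, to 6.45% in the Brap F/F livers.

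Markers of cell types were read as well, with the deposited size factors. In bulk tissue fewer cells of a type and less RNA per cell cannot be told apart. The summed counts of the groups overlapped in every list of markers, and 52.0% of all tested genes were below 0. Of the genes that averaged at least 1000 normalized counts, the level of all 9 hepatocyte markers, 70.9% were below 0. Of the genes that averaged less, 45.2% were. Of 9 hepatocyte markers, 7 were below 0, with a median log2 fold change of -0.42 and summed normalized counts of 2452846 to 3369075 in the Brap LKO livers and 3025235 to 4532947 in the Brap F/F livers. All 7 cholangiocyte markers were above 0 (median 0.95), with summed counts of 1909 to 3751 and 1130 to 2126 in the respective groups. Of these, Cftr passed the threshold (log2 fold change 2.91, adjusted p = 0.0331 from limma), but at low counts. Its normalized counts were 6.07 to 17.7 in the Brap LKO livers and 0 to 2.10 in the Brap F/F livers. Pdgfrb passed as well (log2 fold change 0.91, adjusted p = 0.0494 from limma). It was 1 of the 8 markers of stellate cells and fibroblasts, of which 7 were above 0 (median 0.44). By this test 0.664% of all genes were higher. The 8 macrophage and monocyte markers (median 0.47), the 6 lymphocyte markers (median 0.50) and the 6 markers of sinusoidal endothelium (median 0.21) were all above 0. The lowest macrophage value was 0.02, for Clec4f, and no endothelial marker (0) had an unadjusted p-value under 0.05 from limma. Of 5 red blood cell markers, 4 were below 0 (median -0.06). None (0) of the markers of these lists was without reads in all livers. The part of these cell types in the higher Slc25a4, Slc25a24 and Ucp2 or in the lower values of the abundant carriers was not tested.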

How the data were processed

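The authors aligned single-end reads of 50 bases to mm10 with STAR 2.6.0c and compared the groups with DESeq2. The counting tool and annotation release are not given in the sources used here. The deposited values are a signal, reads on each gene over the DESeq2 size factor of that liver, given for 24451 genes. All values (100%, tolerance 0.01 reads) were whole multiples of the smallest value above 0 of their liver, so reads were recovered. No per-liver column (0) was left out. The authors' comparison of the groups, with means, fold changes and p-values, was not used.

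Log2(normalized count + 1) was compared with limma 3.58.1 in R 4.3.3 (lmFit, eBayes with a mean-variance trend, no covariates) for the 15352 genes with a mean of at least 5, with Benjamini-Hochberg adjustment over all of them and a threshold of 0.05. Such fold changes understate the change of low genes. Count tests on recovered reads (edgeR 4.0.16, quasi-likelihood, and DESeq2 1.42.0) were alternatives, since the deposited unit is not counts. The scripts were checked on simulated data. Ratios of pairs were tested by exact permutation of the groups (two-sided, 70 arrangements). Positions and transcript lengths came from GENCODE M21 of the same build (24430 genes matched), promoters from RefSeq. Python 3.11.15 was used for tables and figures.

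Members, classes and gene lists were chosen with earlier results of these data known. Values in every liver are given for carriers with an adjusted p-value under 0.05, with an unadjusted p-value under 0.05, among the 8 highest per kb, among the 5 largest absolute fold changes, or in a pair whose ratio did not overlap. For the lists of related genes, those past the threshold and the highest and lowest of each are named, and for the cell type markers those past the threshold. Other genes named with values were chosen after their values were seen. Replicates are separate livers by their labels. Intervals (95%) rest on the spread between livers, and floors cover counting error only, since molecules were not tagged. Alternatives were other pseudocounts (0.5 or 5), another filter (none or a mean of at least 20), other scalings (quantiles, TMM factors or the same total per liver), other limma settings (arrayWeights, robust eBayes or no trend), a block for the replicate number, a covariate for the range of the animal number in the labels, other thresholds (0.1 or 0.01), and leaving out each liver.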

Additional observations from a re-analysis of the deposited data

Results flagged for a closer look

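In 8 of 82 groups of 4 livers, taken over the 41 tested carriers, the highest or lowest liver stood far from the rest judged by its gap to the nearest liver over the range of the group. Chance gives about 1 in 20 such groups, or 4.1. In the Brap LKO livers, Slc25a17 stood at 1312 in replicate 2 (nearest other liver 1255), Slc25a22 at 7512 in replicate 1 (nearest 8250) and Slc25a26 at 214 in replicate 1 (nearest 189). Brap LKO replicate 4 stood apart for Slc25a24 at 99.8 (nearest 66.8), for Slc25a27 at 31.2 (nearest 42.5) and for Slc25a42, a carrier of coenzyme A, at 4252 (nearest 4602). In the Brap F/F livers, Slc25a20 stood at 3613 in replicate 4 (nearest 5452) and Slc25a34 at 626 in replicate 2 (nearest 451). The values fall on 5 livers, and their cause was not tested.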

How the results depend on the processing

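Slc25a4 was the only carrier called higher, and this number was 0 after quantile normalization, with the replicate block and at an adjusted p-value under 0.01, 2 with DESeq2, and 0 to 0 when leaving out each liver. The number lower was 1 with DESeq2 and 0 to 1 when leaving out each liver, the 1 being Slc25a20 without Brap F/F replicate 4. Genes of the related lists past the threshold numbered 1 with the same total per liver, 4 with DESeq2 (Ucp2, Glud1, Pcx and mt-Nd1) and 0 to 1 when leaving out each liver (Bcat2 without Brap F/F replicate 4). The family's median was 0.022 with the same total per liver and -0.17 to -0.08 when leaving out each liver. Pairs whose ratios did not overlap numbered 2 to 6 when leaving out each liver, 4 of them when Brap F/F replicate 3 was left out and 6 when replicate 4 of that group was. Leaving out a liver cannot make separate groups overlap, so this number could only stay at 2 or rise. Of the log2 fold changes of the 15 carriers given by liver, 5 of 330 changed sign: Slc25a39 at 0.0062 and Slc25a3 at 0.0071 after quantile normalization, and Slc25a39 at 0.046, Slc25a3 at 0.058 and Slc25a23 at 0.017 with the same total per liver. Over all genes, DESeq2 called 455 higher and 170 lower where limma called 102 and 16, the same total per liver gave 459 higher, and leaving out each liver gave 11 to 178 higher and 4 to 54 lower. With the replicate block, limma gave Slc25a4 an adjusted p of 0.0771 at a log2 fold change of 0.68, and with the animal number range as a covariate 0.0253 at 0.82. The replicate numbers only name the livers: deviations of same-numbered livers correlated at -0.13 to 0.29, and 3 of 4 Brap LKO livers correlated best with the Brap F/F liver of their own number. For 2 of these the lead was slight. Brap LKO replicate 2 had 0.0034 with its own number and 0.0010 with Brap F/F replicate 3, and Brap LKO replicate 3 had 0.1961 with its own and 0.1951 with Brap F/F replicate 2. The causes of these moves were not tested. Depth limits the 4 carriers with at most 5 reads a liver.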

Other observations

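Several carriers were highest in Brap F/F replicates 2 and 3, a pattern seen only after the values were examined and not tested. Both are of the higher range of animal numbers, as are Brap F/F replicate 4 and Brap LKO replicate 4. Slc25a51, the NAD carrier, was counted at 7696 and 6739 in Brap F/F replicates 2 and 3 and at 3146 to 4341 in the other 6 livers. Slc25a32, the folate and FAD carrier, stood at 2798 and 2815 in these livers and at 1464 to 1689 in the others. Slc25a10 stood at 9700 and 12447 in them and at most at 8329 elsewhere. The coactivator gene Ppargc1a was also highest there, at 707 and 502 against at most 342, as did Pcx, at 28354 and 31595 against at most 22208. Slc25a48 was highest in the same livers, at 517 and 662 against at most 454. Slc25a30 showed another order, with 668 in Brap F/F replicate 2 and 1437 in Brap F/F replicate 3.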
